A study of Mus musculus with 18 samples.

Results

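The 38 genes described here are genes of skeletal muscle, chosen by name and read from the rows of the deposited gene table with those symbols. All 38 were found among the 54347 rows. They hold 14 genes of fast fibre structure, 5 of slow fibre structure, 11 used by both fibre types, 5 myogenic regulators and 3 genes of other roles. The libraries came from fat, not from muscle: the interscapular brown depot (iBAT), the inguinal white depot (iWAT) and the epididymal white depot (eWAT), sequenced as poly(A) RNA. Each tissue was taken from 3 wild type (wt) and 3 homozygous ΔGm15551 (ko) mice of the C57BL/6N strain, 12 weeks old and on chow. The ko mice carry a CRISPR/Cas9 deletion that includes exon 1 of the long noncoding RNA Gm15551 in every cell. The 6 mice gave all 18 libraries, since the same mouse was sampled in its 3 tissues. Gm15551 had 40 to 316 counts in the wt libraries and 0 to 4 in the ko libraries.

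Skeletal muscle fibres contract when calcium leaves the sarcoplasmic reticulum through the ryanodine receptor, binds troponin and frees actin for myosin. Most proteins of this machine exist as a fast and a slow form from separate genes, and mouse limb muscles differ in how much of each they hold. Fast fibres further divide by myosin heavy chain, with Myh2 for type IIa, Myh1 for type IIx and Myh4 for type IIb. Brown adipocytes share a Myf5-expressing precursor with muscle, and mature brown fat shares genes of mitochondrial fuel use with it.

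Myh4 and Myh1 are neighbours in one myosin heavy chain cluster on mouse chromosome 11 (GRCm38), Myh1 at chr11:67200052-67224575 and Myh4 at chr11:67238029-67260446, both on the + strand. The 250 bases before their RefSeq starts (GRCm38.p6) are shown with those of Ckm and Acta1, since Myh4, Ckm and Acta1 had 44364, 12793 and 17198 counts in the library richest in muscle genes, and Myh1 had 184. Capitals mark each CANNTG, the E-box read by the myogenic factors MyoD and MRF4.
Myh4: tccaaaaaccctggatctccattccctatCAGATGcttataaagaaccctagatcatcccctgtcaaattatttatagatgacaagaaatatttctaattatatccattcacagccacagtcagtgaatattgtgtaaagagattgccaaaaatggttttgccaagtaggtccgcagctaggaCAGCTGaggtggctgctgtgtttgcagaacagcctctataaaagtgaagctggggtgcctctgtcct
Myh1: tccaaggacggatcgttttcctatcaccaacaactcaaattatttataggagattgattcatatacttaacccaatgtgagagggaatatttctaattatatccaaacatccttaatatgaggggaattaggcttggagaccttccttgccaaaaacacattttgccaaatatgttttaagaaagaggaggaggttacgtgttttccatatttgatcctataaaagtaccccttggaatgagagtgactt
Ckm: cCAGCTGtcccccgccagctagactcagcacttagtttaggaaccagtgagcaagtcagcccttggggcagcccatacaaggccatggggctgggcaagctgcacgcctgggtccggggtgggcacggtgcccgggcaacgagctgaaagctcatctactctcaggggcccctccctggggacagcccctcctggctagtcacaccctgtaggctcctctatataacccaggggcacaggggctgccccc
Acta1: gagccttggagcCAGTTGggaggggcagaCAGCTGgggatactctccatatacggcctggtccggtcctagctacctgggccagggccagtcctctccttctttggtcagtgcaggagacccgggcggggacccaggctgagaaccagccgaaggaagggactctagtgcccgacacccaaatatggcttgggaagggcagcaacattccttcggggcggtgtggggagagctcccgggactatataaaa
The windows are chr11:67237562-67237811 on the + strand for Myh4, chr11:67199852-67200101 on the + strand for Myh1, chr7:19410844-19411093 on the + strand for Ckm and chr8:123894776-123895025 on the - strand for Acta1. The Myh4 window held 2 E-boxes, the Ckm window 1 and the Acta1 window 2, each with 1 copy of the form CAGCTG, while the Myh1 window held 0. CANNTG reads alike on both strands and includes CAGCTG. RefSeq gave 33 windows for 28 of the 38 genes: 26 of the 33 held CANNTG (78.8%) and 15 held CAGCTG (45.5%). Over all 32851 windows of the same length the shares were 66.2% and 13.0%. A match describes letters in a window, and binding was not measured.

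Total counts ran from 14997901 (eWAT ko replicate 3) to 34389586 (eWAT ko replicate 2), so that 3 counts, used here as the floor, stood for 0.0728 to 0.235 CPM (counts scaled to the library total, with TMM factors). Adipocyte markers were high in every library, with the 7 genes Adipoq, Plin1, Fabp4, Lipe, Pnpla2, Cfd and Pparg summing to 14952 to 39075 CPM. Several libraries stood apart from the others of their tissue in muscle genes or in genes of other cells. iWAT ko replicate 1 held most of the muscle counts of the series. iBAT wt replicate 3 had 22.9 CPM of fast genes without Myl1, with 7.44 CPM in the next iBAT library. eWAT ko replicate 2 held 1016 CPM of 7 smooth muscle genes, with 474 CPM in the next eWAT library. iWAT wt replicate 3 and iWAT ko replicate 2 held 954 and 423 CPM of 8 lymphocyte genes, against 4.06 to 21.3 CPM in the other iWAT libraries. In eWAT ko replicate 3, 96.5% of counts lay in genes that passed the filter on low counts, against 99.69% to 99.96% in the other 17.

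Together the 38 members reached 6014 CPM in iWAT ko replicate 1, with 33.3 to 104 CPM in every other library of the series (the heat map of all members by library shows the column). In that library 32 of the 38 members had over 3 counts. 30 of the 38 lay above all 5 other iWAT libraries, and 23 did so by over 10 times. Of the 24 members that passed the filter, 22 lay above every other iWAT library, where 17.7% of all tested genes did, and 16 did so by over 10 times, where 0.203% of all tested genes did. The 8 members that did not were Myh7, Tnnt1, Tnni1 and Tnnc1 of the slow list, Myf5, Myog and Pax7 of the regulators, and Sln.

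**Figure D1:**
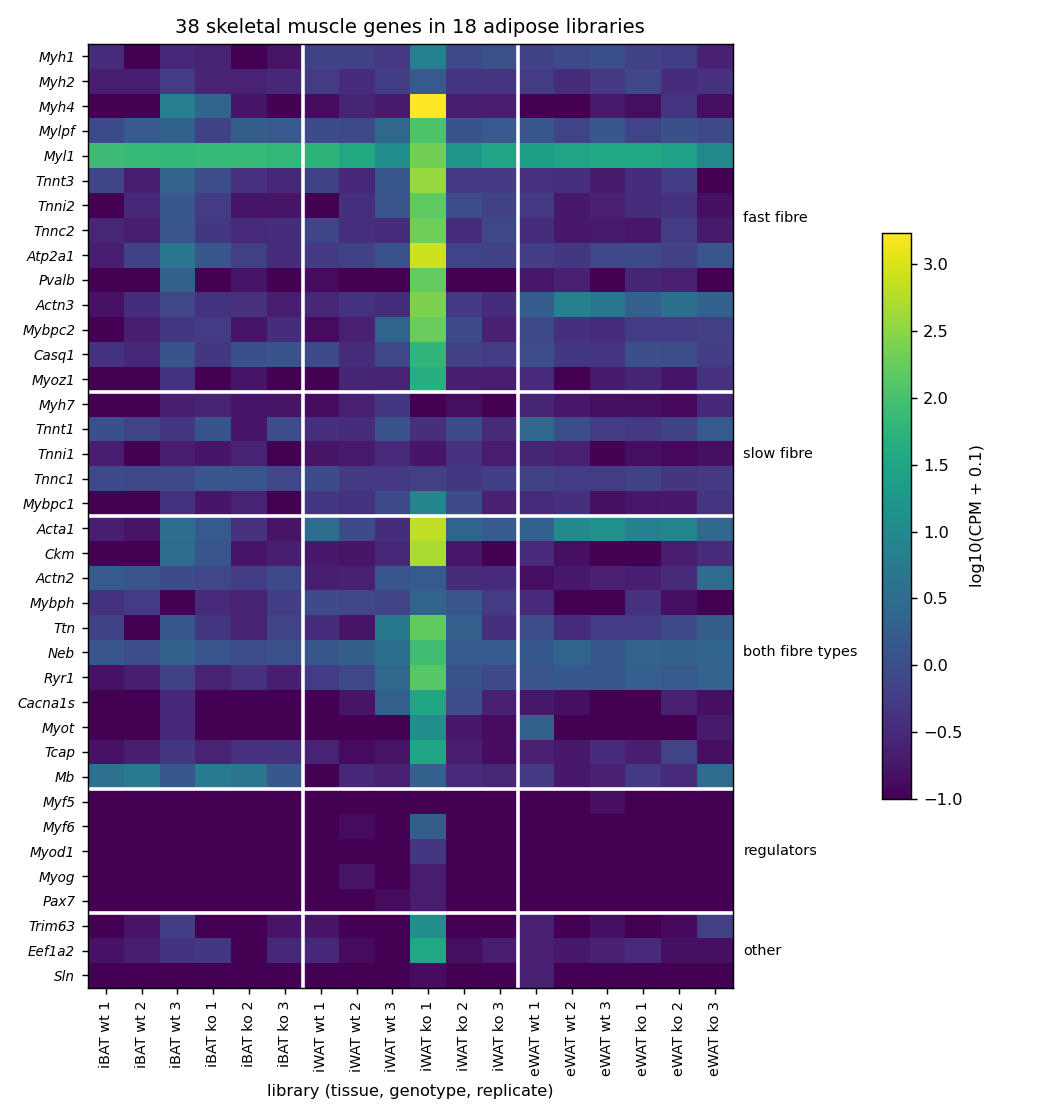
Heat map of log10(CPM + 0.1) for the 38 members (rows, by list) in the 18 libraries (columns, by tissue, genotype and replicate). iWAT ko replicate 1 is bright through the fast rows and most rows of genes used by both fibre types, and Myl1 is bright in all 18 columns.

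The contractile genes of fast fibres made up most of this signal. Myh4, the type IIb myosin heavy chain, had 44364 counts in iWAT ko replicate 1 and 1, 5, 3, 3 and 3 in the other iWAT libraries (wt replicates 1 to 3, then ko replicates 2 and 3). Atp2a1, the fast calcium pump that refills the reticulum, had 22158 counts there and 13 to 32 in the other 5. Acta1, the skeletal actin, had 17198 against 8 to 97. No other iWAT library came near these values, and each ratio to the next library, 9925 for Myh4, 812 for Atp2a1 and 211 for Acta1, compares single libraries without a replicate. Ckm, the muscle creatine kinase, had 12793 counts against 0 to 6. Pvalb, the calcium buffer of the fastest fibres, had 4286 against 0 or 1 and was at least 1292-fold higher. The fast troponins Tnnt3, Tnni2 and Tnnc2 had 9717, 4015 and 5134 counts, and the other iWAT libraries had at most 39, 37 and 21. Actn3, the alpha-actinin of fast fibres, had 6491 counts against 6 to 10.

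The slow fibre genes were at low counts in the same library. Myh7, the slow myosin heavy chain, had 0 counts in iWAT ko replicate 1, while iWAT wt replicate 3 had 11. The slow troponins Tnnt1, Tnni1 and Tnnc1 had 7, 2 and 14 counts there, inside the range of the other iWAT libraries (6 to 34, 2 to 7 and 9 to 27). Mybpc1, the slow-type myosin binding protein C, was the exception with 226 counts against 4 to 23. It carried the summed slow list, which at 9.63 CPM was also highest in this library.

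Per kb of the longest annotated transcript, the fast gene was above its slow partner in 10 of 10 paralogue pairs in iWAT ko replicate 1, and by over 10 times in 9 (the plot of fast genes and their partners). In the other 17 libraries it was above on over 3 counts in 2 to 8 of the 10, and by over 10 times in 1 to 4. Myl1 to Myl3 and Mylpf to Myl2 were above in all 18 libraries, so these pairs do not mark this library. The fast to slow ratio was 1362 for Tnnt3 to Tnnt1 and 378 for Tnnc2 to Tnnc1. It was 597 for Myl1 to Myl3, which stood at 497 or more in iWAT wt replicate 1 with Myl3 set at 3 counts. Actn3 was 174 times Actn2, its partner used by all fibres. The ratio was at least 15314 for Myh4 to Myh7, with Myh7 set at 3 counts. The ratio was smallest for the pump pair, 6.26 for Atp2a1 to Atp2a2. Atp2a2 also serves as the pump of many non-muscle cells and had 2604 to 6875 counts in every library of the series. The next smallest, Mybpc2 to Mybpc1 at 21.996, rested on the 226 counts of Mybpc1.

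**Figure D2:**
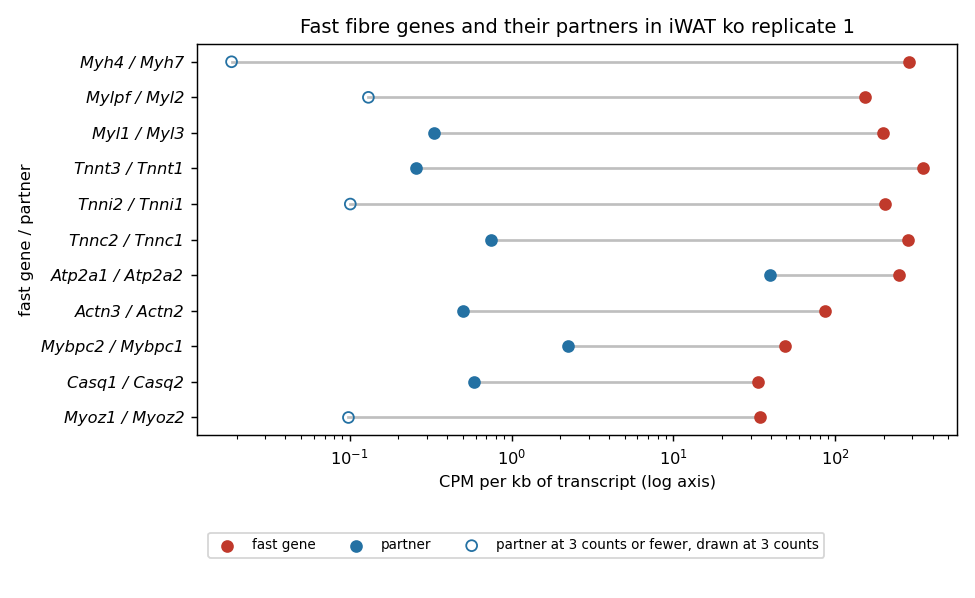
CPM per kb of transcript (log axis) of the fast gene (red) and its partner (blue; slow, but used by all fibres for Actn2) for 11 paralogue pairs in iWAT ko replicate 1, with partners at 3 counts or fewer drawn open at 3 counts. The red point lies to the right in every pair, by 6.26 times for Atp2a1 and Atp2a2 and by over 10 times in the other 10.

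The 3 fast myosin heavy chains were far from equal. Of the counts of Myh4, Myh1, Myh2 and Myh7 in iWAT ko replicate 1, Myh4 took 99.5% (95% exact binomial interval 99.4 to 99.6, n = 44587 counts). Myh1 took 0.413% (0.355 to 0.477) and Myh2 0.0875% (0.0622 to 0.120). These genes have transcripts of 6016 to 6230 bases, so length shifts the shares little. In the other 5 iWAT libraries, on 30 to 41 counts each, Myh4 took 3.03% to 15.2% and Myh1 29.3% to 70.0%. Intervals cover counting error only, and the counts are estimates that divide reads between these near-identical genes. The developmental and extraocular heavy chains of the same cluster stayed low in iWAT ko replicate 1, with 0 counts for Myh3, 9 for Myh8 and 0 for Myh13.

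Genes of excitation and calcium release, used in both fibre types, were also high in that library. Ryr1, the release channel, had 3463 counts, Cacna1s, the voltage sensor that opens it, had 798, and Casq1, the calcium store protein of the fast list, had 1594. Of the giant scaffold genes, Ttn had 4050 counts and Neb 2262. The Z-disc genes Tcap and Myot had 808 and 320 counts where the other iWAT libraries had at most 5 and 2. Mb, the oxygen store protein rich in oxidative fibres, had only 48 counts, or 1.86 CPM, a level below that of 4 of the 6 iBAT libraries. Mybph, myosin binding protein H, had 58 counts against 12 to 28.

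The regulators were nearly silent in the series. Myf6, which encodes MRF4, the factor kept on in adult fibres, had 43 counts in iWAT ko replicate 1 and at most 1 in the other 17 libraries. Myod1 had 10 counts there and 0 elsewhere. Myog, which drives fibre differentiation, had 3, and Pax7, which marks the muscle stem cell, had 3. Myf5 had 0 counts there and 1 count in all, in eWAT wt replicate 3. None of the 5 had a count in any iBAT library, which at 3 counts leaves levels up to 0.186 to 0.235 CPM undetected. Sln, the small inhibitor of the calcium pump, had 1 count there and 3 in eWAT wt replicate 1. Trim63, a ubiquitin ligase of muscle wasting, had 312 counts, and Eef1a2, the elongation factor of adult muscle and nerve, had 844, where the other iWAT libraries had at most 2 and 6.

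Other muscle genes, from lists given by role, were also highest in iWAT ko replicate 1. Of 26 further genes of fibre structure 23 lay above all other iWAT libraries, of 13 of excitation and calcium handling 10, and of 12 of muscle energy use 12. Of 7 further slow genes 1 did, and of 3 developmental and extraocular heavy chains 0. Among genes outside the 38 with 50 or more counts, the 15 that stood farthest above the next library began with Xirp2 (1008 counts, 0 elsewhere in iWAT), Trdn (794) and Hjv (466), and 10 of the 15 were in the muscle lists. Of genes of other cell types and tissues, 1 of 6 tendon genes, 1 of 8 heart genes, 3 of 7 Schwann cell genes, 2 of 7 smooth muscle genes and 0 of 8 lymphocyte genes were highest in this library, where 17.7% of all tested genes were. The same held for 1 of 7 adipocyte genes, 1 of 7 brown adipocyte genes and 2 of 7 genes shared by muscle and brown fat.

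The mouse that gave iWAT ko replicate 1 also gave iBAT ko replicate 1 and eWAT ko replicate 1, where Myh4 had 30 counts and 1 count. In brown fat the largest amount was in another mouse, in iBAT wt replicate 3, with 102 counts of Myh4, 69 of Atp2a1, 51 of Acta1, 46 of Ckm, 33 of Tnnt3 and 30 of Pvalb. In the other 4 iBAT libraries Myh4 had 0 or 1 count and Ckm 0 to 2. Of the 24 tested members 15 were above all 5 other iBAT libraries in iBAT wt replicate 3, where 15.9% of all tested genes were, and 0 by over 10 times, where 0.00534% of all tested genes were.

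The members were next scaled to the fast genes in single libraries, iWAT ko replicate 1 and the iBAT libraries richest in them. These ratios compare libraries of single mice, so their intervals hold no spread between samples. The scale was counts per 100 counts of the other fast genes. Myl1, with 194 or more counts in all 18 libraries, was left out of the sum after seeing the data. Mylpf stayed in it, although it too had over 3 counts in all 18 (7 to 79 outside iWAT ko replicate 1). Acta1 stood at 14.4 (95% interval 10.5 to 19.4) in iBAT wt replicate 3 and at 16.1 (15.9 to 16.4) in iWAT ko replicate 1. Ckm stood at 13.0 and 12.0, Tnnt3 at 10.3 and 10.02, and Atp2a1 at 24.2 and 26.2. The counting intervals of these 4 overlapped, in libraries whose fast counts without Myl1 were 354 and 106722. This overlap depended on the sum, since Myl1 made up 1014 of the 1368 fast counts of iBAT wt replicate 3. With Myl1 in the sum, Acta1, Ckm, Tnnt3 and Atp2a1 stood at 3.73, 3.36, 2.47 and 5.31 there. In iWAT ko replicate 1 they then stood at 15.3, 11.4, 9.48 and 24.6, with intervals apart. Without Myl1 in the sum, Mb stood at 5.93 (3.63 to 9.21) in iBAT wt replicate 3 and at 0.0450 (0.0332 to 0.0596) in iWAT ko replicate 1. It had 21 counts in iBAT wt replicate 3, where its iWAT ratio would give 0.159. Actn2, Tnnc1 and Tnnt1 had 13, 13 and 6 counts, where their iWAT ratios would give 0.129, 0.0464 and 0.0232. Myl1 had 1014 counts where its iWAT ratio would give 18.3. Myh2, the type IIa heavy chain of the fast list, had 7 where its ratio would give 0.127. Between these lay Pvalb, Mylpf, Casq1, Neb, Mybpc1 and Trim63, at 2.21 to 7.73 times the count that the iWAT ratio would give and with intervals apart. Where any of these counts came from was not tested. Of the 32 members with over 3 counts in iWAT ko replicate 1, 17 had overlapping intervals (6 of them on 3 counts or fewer, where overlap says little), 12 were higher in iBAT wt replicate 3 and 3, Myh4, Actn3 and Mybpc2, were lower. In iBAT ko replicate 1, on 95 fast counts, 19 overlapped, 9 of them on 0 to 2 counts, 12 were higher, 3 of them on 2 or 3 counts, and 1, Pvalb, was lower at 0 counts. The 4 iBAT libraries with 0 or 1 count of Myh4 already held 41 to 62 such fast counts. Much of the 95 was thus at the level of those libraries, and the ratios there say little.

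**Figure D3:**
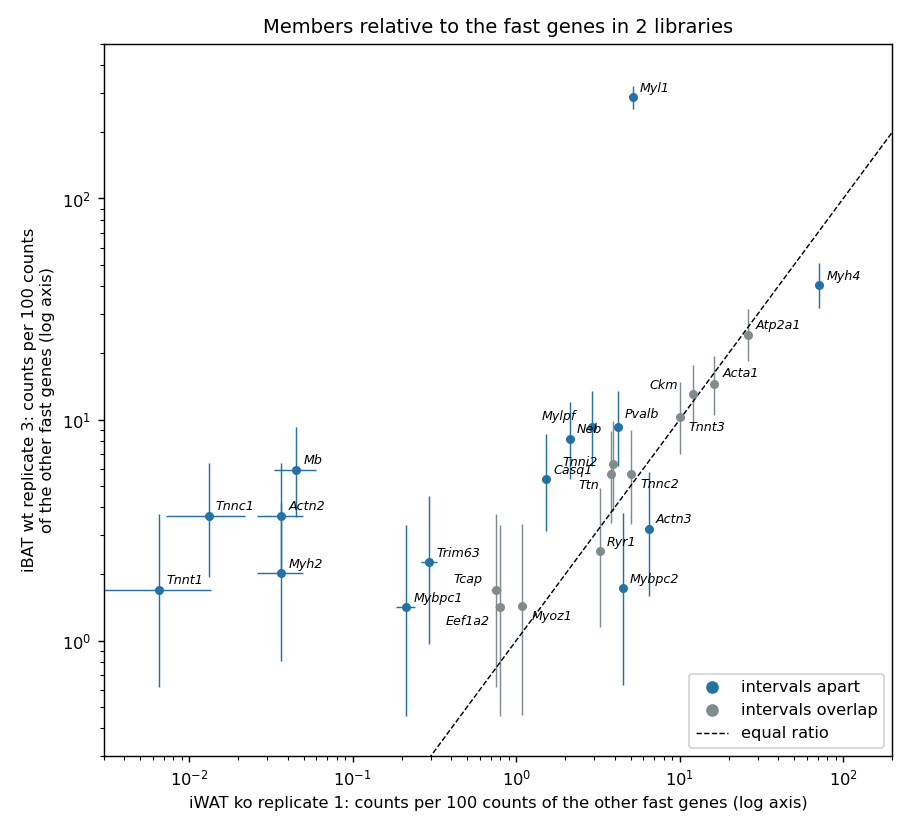
Counts per 100 counts of the other fast genes (Myl1 left out of the sum) in iWAT ko replicate 1 (x, log axis) and iBAT wt replicate 3 (y, log axis), for members with over 3 counts in both, with 95% exact intervals. With this sum Acta1, Ckm, Tnnt3 and Atp2a1 lie on the dashed line of equal ratio, while Mb, Tnnc1, Actn2, Tnnt1, Myl1 and Myh2 lie far above it. With Myl1 in the sum, which is not drawn, Acta1, Ckm, Tnnt3 and Atp2a1 would lie below the line.

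6 members had over 3 counts in all 6 iBAT libraries: Myl1, Mb, Tnnc1, Actn2, Mylpf and Neb. Myl1, the fast essential myosin light chain, was the highest of them per kb in each of those libraries. Its level in iBAT was 81.1, 69.8 and 65.5 CPM in wt and 67.3, 69.8 and 63.2 CPM in ko, a narrow range. In eWAT it was 9.61 to 32.996 CPM, below all iBAT libraries, and in iWAT 11.8 to 55.9 CPM in 5 libraries with 213 CPM in ko replicate 1. Myl1 was higher in iBAT than in eWAT by 1.41 on the log2 scale (SE 0.54, n = 6 and 6, adjusted p = 0.0345 in edgeR's quasi-likelihood test). The call was lost (adjusted p = 0.0526 to 0.0688 in edgeR) when any of the 3 iBAT wt libraries, the 3 eWAT ko libraries or eWAT wt replicate 1 was left out. Against iWAT the difference was 0.26 (SE 0.53, adjusted p = 0.710 in edgeR), and without iWAT ko replicate 1 it was 1.25 and past the threshold.

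Of the members called higher in iBAT, Mb had the largest log2 difference from either white depot. It stood at 3.90, 5.64 and 1.36 CPM in iBAT wt and at 5.72, 4.51 and 1.35 CPM in iBAT ko, and at 0 to 0.214 CPM in 5 iWAT libraries. In 5 eWAT libraries it stood at 0.0970 to 0.429 CPM, with 2.92 CPM in eWAT ko replicate 3. The groups overlapped only through iWAT ko replicate 1 and eWAT ko replicate 3, which lay above the 2 lowest iBAT libraries. Mb was higher in iBAT than in iWAT by 3.67 on the log2 scale (SE 0.89, adjusted p = 0.00235 in edgeR) and higher than in eWAT by 2.96 (SE 0.87, adjusted p = 0.00837 in edgeR). Both iBAT libraries in which it was lowest, wt replicate 3 and ko replicate 3, were also the lowest 2 of the 6 for 4 of the 6 counted genes of fuel use that muscle and brown fat share. These were Fabp3 (135 and 203 CPM), Cox7a1 (433 and 414 CPM), Cpt1b (948 and 1003 CPM) and Ucp3 (113 and 152 CPM), while Cox8b and Ppargc1a had other lowest pairs. The same libraries were the lowest 2 for 4 of 7 brown adipocyte markers (Ucp1, Dio2, Elovl3 and again Cpt1b), where 13.7% of all tested genes had this order.

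Tnnc1, the troponin C of slow fibres and heart, was low but even. Its level was 0.708 to 1.25 CPM in iBAT, 0.385 to 0.877 CPM in iWAT and 0.364 to 0.572 CPM in eWAT, so that iBAT overlapped iWAT only through iWAT wt replicate 1. It was higher in iBAT by 0.80 against iWAT (SE 0.27, adjusted p = 0.0186 in edgeR). Against eWAT it was higher by 0.98 (SE 0.27, adjusted p = 0.00591 in edgeR). Before scaling the depots overlapped: each iBAT library held 11 to 16 counts of Tnnc1, inside the 8 to 27 counts of the white fat libraries. TMM factors were 0.617 to 0.744 for iBAT libraries and 1.06 to 1.44 for white fat libraries, so the difference rested largely on scaling. Without iWAT ko replicate 2 the difference from iWAT was 0.72 (adjusted p = 0.0507 in edgeR). Actn2, the alpha-actinin of all fibres, had 6 to 24 counts in iBAT and 1 to 9 in 9 of the 12 white fat libraries. It reached 38, 39 and 60 in iWAT wt replicate 3, iWAT ko replicate 1 and eWAT ko replicate 3, and its difference from iWAT did not pass the threshold (log2 difference 0.78, SE 0.88, adjusted p = 0.477 in edgeR). Outside the members Myl3, the slow and cardiac light chain, had 36 to 60 counts in iBAT and 0 to 28 in white fat. Of the 7 genes shared by muscle and brown fat metabolism 6 were tested, and all 6 had an adjusted p under 0.05 in edgeR and were higher in iBAT, where 24.0% of all tested genes were against iWAT and 24.4% against eWAT, with Cox7a1 at 414 to 585 CPM in iBAT and 0.644 to 10.2 CPM in white fat.

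**Figure D4:**
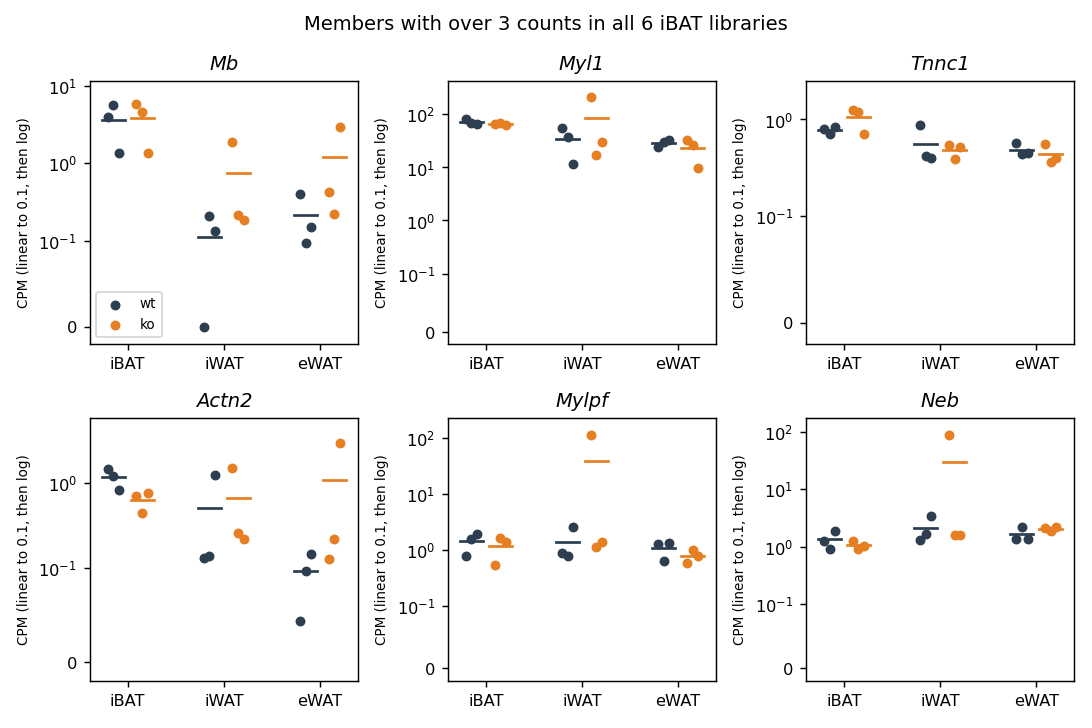
CPM (linear to 0.1, then log) of the 6 members with over 3 counts in all iBAT libraries, by tissue and genotype (dark wt, orange ko). Points are libraries and bars are means of 3, and the Mb and Myl1 points of iBAT lie above those of eWAT except Mb in eWAT ko replicate 3.

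Across tissues, 24 of the 38 members passed the filter and were tested: 12 fast, 3 slow and 9 used by both. The 14 left out were Pvalb, Myoz1, Myh7, Tnni1, Myot, Tcap, the 5 regulators, Trim63, Eef1a2 and Sln. Between iBAT and iWAT 2 members were higher in iBAT (Mb and Tnnc1), where 24.0% of all tested genes were, and 12 were lower, where 30.3% of all tested genes were. The median log2 difference was -3.95 over the members and -0.14 over all tested genes. The 12 lower members were Myh1, Myh2, Mylpf, Actn3, Mybpc2, Mybpc1, Acta1, Mybph, Ttn, Neb, Ryr1 and Cacna1s. Without iWAT ko replicate 1 the median was -0.07, 4 members were lower (Myh1, Mybpc1, Ryr1 and Cacna1s) and 4 were higher (Mb, Myl1, Tnnc1 and Myh4). The call of Myh4 came from 102 and 30 counts in iBAT wt replicate 3 and iBAT ko replicate 1, and with iBAT wt replicate 3 also left out Myh4 did not pass the filter. With the mouse as a replicate block 6 of the 12 were called lower (Myh1, Myh2, Mybpc1, Mybph, Ryr1 and Cacna1s). The count of lower members was also 5, 5 and 6 without iBAT ko replicates 1, 2 and 3 in turn. Bulk RNA does not tell fewer cells of a type from less RNA per cell.

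Between iBAT and eWAT 3 members were higher in iBAT (Mb, Myl1 and Tnnc1), where 24.4% of all tested genes were, and 1 was lower (Myh1), where 30.2% of all tested genes were. With the mouse as a replicate block 4 were lower (Myh1, Acta1, Actn3 and Ryr1). Myh1 had 0 to 4 counts in iBAT, 3 to 21 in eWAT and 12 to 28 in the 5 other iWAT libraries, with 184 in iWAT ko replicate 1. It was lower in iBAT by 2.38 on the log2 scale against eWAT (SE 0.89, adjusted p = 0.0311 in edgeR). This call was lost (adjusted p = 0.0519 to 0.0653 in edgeR) without iBAT wt replicate 2, any iBAT ko library or eWAT wt replicates 2 or 3, and DESeq2 gave Myh1 no adjusted p. Against iWAT the log2 difference was -3.71 (SE 0.91, adjusted p = 0.00246 in edgeR) and, without iWAT ko replicate 1, -2.55. Between iWAT and eWAT 4 members were higher in iWAT (Tnnt3, Tnnc2, Mybph and Cacna1s), where 5.7% of all tested genes were, and 0 were lower, where 4.5% were. Of these 4, Mybph alone was also called without iWAT ko replicate 1, and alone with the replicate block. It stood at 0.440 to 1.20 CPM in those 5 iWAT libraries and at 0 to 0.300 CPM in eWAT. Its log2 difference was 3.32 (SE 0.79, adjusted p = 0.0146 in edgeR) and 2.97 without that library.

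White fat held further members that did not move with the fast contractile genes. Acta1 had 45, 199 and 265 counts in eWAT wt and 160, 336 and 48 in eWAT ko, where Myh4 had 0 to 14 and Ckm 0 to 5. Actn3 had 38, 147 and 90 in eWAT wt and 44, 149 and 40 in eWAT ko, above every iBAT library (1 to 11) and every iWAT library (6 to 10) but iWAT ko replicate 1. With all libraries neither passed the threshold between iBAT and eWAT (Actn3 log2 difference -3.96, SE 1.91, adjusted p = 0.0894 in edgeR; Acta1 -3.14, SE 1.77, adjusted p = 0.144). Without iWAT ko replicate 1 both were called lower in iBAT than in eWAT (log2 differences -3.51 for Actn3 and -3.00 for Acta1), and Actn3 was called lower in iWAT than in eWAT (-3.53). Ryr1 was even in eWAT, at 1.19 to 2.03 CPM, and stood at 0.0619 to 0.582 CPM in iBAT.

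In inguinal fat, leaving out iWAT ko replicate 1, 9 of the 24 tested members were higher in both libraries rich in lymphocyte genes than in the other 3, where 24.9% of all tested genes were. They were Tnni2, Atp2a1, Mybpc2, Tnnt1, Mybpc1, Actn2, Ttn, Ryr1 and Cacna1s. Ttn had 151 counts in iWAT wt replicate 3 and 42 in iWAT ko replicate 2, and 2 to 8 in the other 3. Cacna1s had 54 and 21 against 0 to 4, and Mybpc2 had 66 and 18 against 1 to 4. Ryr1 had 76 and 26 against 14 to 21, Tnni2 37 and 21 against 0 to 15, Tnnt1 34 and 20 against 6 to 9, and Mybpc1 23 and 20 against 4 to 12. Atp2a1 (14 against 13 to 16 counts) and Actn2 (6 against 4 to 6) stood above the other 3 in iWAT ko replicate 2 only after scaling. The fibre genes Myh4 and Ckm had 3 and 6 counts in iWAT wt replicate 3 and 3 and 2 in iWAT ko replicate 2. The part of lymphocytes in these genes was not tested. In iWAT wt replicate 3, leaving out iWAT ko replicate 1, 13 of the 24 tested members were above the other 4 libraries, where 29.2% of all tested genes were, and 0 by over 10 times, where 0.0427% were.

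In epididymal fat single libraries held single members. eWAT ko replicate 3 had 60 counts of Actn2, 59 of Mb and 11 of Trim63, against 1 to 9, 2 to 10 and 0 to 3 in the other 5. It also had 2063 counts of Myom2, an M-band gene, and 708 of Rpl3l, a muscle ribosomal protein, where the other eWAT libraries had at most 20 and 4, with 1 count of Myh4 and 0 of Tnnt3. Of the tested members 7 were above all other eWAT libraries there, where 32.5% of all tested genes were. eWAT wt replicate 1 had 44 counts of Myot and 54 of Tnnt1, with 0 of Myh4, against 0 to 2 and 10 to 30 in the other 5.

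**Figure D5:**
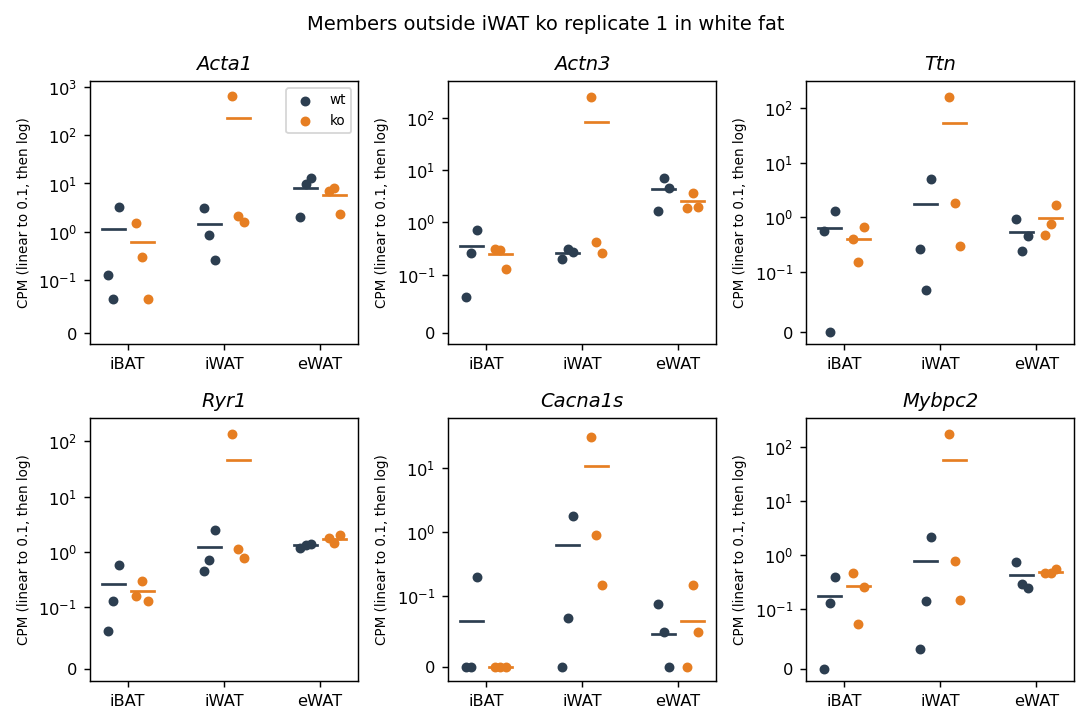
CPM (linear to 0.1, then log) of Acta1, Actn3, Ttn, Ryr1, Cacna1s and Mybpc2 by tissue and genotype (dark wt, orange ko), with points for libraries and bars for means of 3. iWAT ko replicate 1 is the top point of each panel, Actn3 in eWAT (1.67 to 7.13 CPM) lies above all iBAT points and the other iWAT points, and Cacna1s is at 0 in 5 of 6 iBAT libraries.

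Between genotypes no member passed the threshold. In iWAT the log2 difference of ko from wt was 12.40 for Myh4 (SE 3.21, unadjusted p = 0.00158, adjusted p = 1 in edgeR), from 0.101 ± 0.070 CPM in wt to 572 ± 990 CPM in ko (SD, n = 3). The ko libraries were at 1715, 0.128 and 0.110 CPM, so that 1 of 3 differed from wt. 18 of the 24 tested members had an unadjusted p under 0.05 in iWAT and 0 had an adjusted p under 0.05, where 0.0% of all tested genes did. The median over the members was 4.84, and -0.19 without iWAT ko replicate 1, when 0 members had an unadjusted p under 0.05. In iBAT 0 members were called, where 0.0% of all tested genes were, and 0 had an unadjusted p under 0.05. In eWAT 0 members were called, where 0.00534% of all tested genes were, and 1, Actn2, had an unadjusted p under 0.05 (log2 difference 3.43, SE 1.28, adjusted p = 1 in edgeR). Across tissues, in a fit taking the 18 libraries of 6 mice as independent, 0 members were called, where 0.00534% of all tested genes were. There Mb alone had an unadjusted p under 0.05, a value that counts each mouse more than once. The median over the members was 1.73 with 23 of 24 above 0, and -0.18 with 6 of 24 above 0 without iWAT ko replicate 1. The interaction of genotype with tissue called 0 members, where 0.0% of all tested genes were called, with 13 members at an unadjusted p under 0.05. DESeq2 also called 0 members between genotypes, and gave no adjusted p for 14 of the 24 in iWAT.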

How the data were processed

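Poly(A) RNA of 18 adipose samples (iBAT, iWAT and eWAT of 3 wt and 3 ko mice) was sequenced as paired ends. Per the labels and methods, reads were trimmed with cutadapt and quantified with salmon against GENCODE M22 transcripts of GRCm38, with or without noncoding RNA sequences. The authors deposited estimated counts per gene as whole numbers. The salmon version, strandedness and how transcripts were summed per gene are not given in the sources used here, so reads shared by near-identical myosin, actin and troponin genes may be split unevenly.

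The members and all lists were chosen with earlier results of these data known. The list of lymphocyte genes, the comparison of the libraries rich in them and the sums without Myl1 were added after seeing the data. Groups came from the labels. Genes were filtered with filterByExpr over the 6 groups, which left 18728 genes, scaled by TMM and tested with edgeR 4.0.16 (quasi-likelihood, Benjamini-Hochberg over all tested genes, threshold 0.05) in R 4.3.3. The test was checked on simulated, independent libraries with an equal spread for all genes and known changes of well-counted genes between iBAT and iWAT. That check does not cover single outlying libraries, genes at low counts or several tissues of the same mouse. Tissue contrasts were fitted over all 18 libraries with genotype as a covariate, and share libraries. Single libraries and ratios were described without a test. Depth per library was 14997901 to 34389586 counts. Intervals (95%, Clopper-Pearson) and the floor of 3 counts cover counting error only. Gene coordinates and transcript lengths came from GENCODE M21 on GRCm38, which is not the version the counts were made with, and gene IDs were matched without their version. Promoter windows came from RefSeq.

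Named genes were all 38 members, fold changes of those past the threshold, the largest genes of the lists, and the 15 other genes standing farthest above the next iWAT library in iWAT ko replicate 1. The same genotype and replicate number marks the same mouse in the 3 tissues, per the mouse IDs in the labels. Deviations from the group means of a mouse's tissues correlated at -0.165 to 0.326 (median 0.0573, 18 pairs). Alternatives were the size factors of DESeq2 1.42.0, its test, no filter, a replicate block and leaving out libraries.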

Additional observations from a re-analysis of the deposited data

Results flagged for a closer look

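The library iWAT ko replicate 1 was known to be rich in muscle genes when the members were chosen, so the sums below describe it and are no separate evidence. 6 sums in it were far from the other 5 iWAT libraries, with a gap to the next library of over 0.625 of the whole range (Dixon's 95% value for 6), and they overlap, since the sum of all members holds the others. The 38 members summed to 6014 CPM with the next library at 69.0 (5801 and 28.8 without Myl1), the fast list to 4340 CPM with the next at 60.6 (4127 and 10.7 without Myl1), and the list used by both fibre types to 1618 CPM with the next at 15.2. The slow list summed to 9.63 CPM with the next library at 2.87, and 8.74 of those 9.63 CPM were Mybpc1. In brown fat the fast list without Myl1 summed to 22.9 CPM in iBAT wt replicate 3 with the next library at 7.44, past the same value. With Myl1 no sum in iBAT passed it, and none in eWAT did with or without Myl1. 36 such comparisons were made over 6 sums, 3 tissues and both ends, the sums without Myl1 being added after seeing the data, and chance flags about 1 in 20 groups.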

How the results depend on the processing

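Most counts of members called between tissues moved with single libraries. The filter was rerun on the libraries kept, so the genes tested moved too. Without iBAT wt replicate 3, 27 members were tested, and without iWAT ko replicate 1, 19846 genes in all. Leaving out each of the 18 libraries in turn gave 1 to 4 members higher and 4 to 18 lower in iBAT than in iWAT, 2 to 4 higher and 0 to 4 lower in iBAT than in eWAT, 1 to 10 higher and 0 to 1 lower in iWAT than in eWAT. Against iWAT, the 4 higher and the 4 lower came without iWAT ko replicate 1, the 1 higher without iWAT ko replicate 2, the 18 lower without iBAT wt replicate 3, and 5, 5 and 6 lower without iBAT ko replicates 1 to 3. Lower than eWAT were 4 without iWAT ko replicate 1, 3 without iBAT wt replicate 3, and 0 without iBAT wt replicate 2, any iBAT ko library or eWAT wt replicates 2 and 3. Higher in iWAT than in eWAT were 10 without iWAT wt replicate 1, and 1 or 2 without iWAT ko replicate 1, any eWAT library or any iBAT library but wt replicate 3. The log2 difference of Actn3 between iBAT and iWAT ran from -6.93 to 0.026 over these fits, with its sign turned by leaving out iWAT ko replicate 1, the library with 6491 of its iWAT counts. With iWAT ko replicate 1 and iBAT wt replicate 3 both left out, 6 members were lower in iBAT than in iWAT, 6 lower in iBAT than in eWAT, 1 higher in iWAT than in eWAT and 1 lower. With no filter on low counts, 1 member was higher in iBAT than in iWAT and 2 were higher in iWAT than in eWAT. DESeq2 called 3 lower in iBAT than in iWAT, 0 lower in iBAT than in eWAT and 2 higher in iWAT than in eWAT, and gave no adjusted p for 16 of the 24 members in these contrasts. With the mouse as a replicate block, 6 were lower in iBAT than in iWAT (all 6 among the 12), 4 were lower in iBAT than in eWAT and 1 was higher in iWAT than in eWAT (Mybph). Mb and Tnnc1 were called higher in iBAT than in iWAT with the block and by DESeq2, and Mb, Myl1 and Tnnc1 higher than in eWAT, though Myl1 was not with any of 7 single libraries left out. No alternative called a member between genotypes, and the block by replicate number, which pairs wt and ko by a number only (correlations -0.465 to 0.551 over 9 pairs), changed none of these counts. At these depths a gene under 3 counts cannot be told from one not expressed.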
